A study of Mus musculus with 7 samples.

Results

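The MITF peaks of mouse bone marrow cells after 36 h and after 72 h of RANKL were compared, site by site. All peaks of both lists on chromosomes 1 to 19 and X were taken, which are 3503 of the 3540 peaks at 36 h and 4435 of the 4443 peaks at 72 h. Together they are 7938 of the 239001 peaks in the 7 libraries of the series, and 7938 of the 13340 MITF peaks that the 3 stages hold on these chromosomes. Peaks were matched when they overlapped by at least 1 bp.

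Bone marrow was flushed from C57BLACK6 mice of 4 to 6 weeks and grown for 3 days with CSF1 at 50 ng per mL, which gave the myeloid precursors (MPs). MPs were then given RANKL at 100 ng per mL, and chromatin was precipitated after 36 h or, as osteoclasts (OCs), after 72 h with 5 µg of an antibody raised against MITF. PU.1 libraries of the same 2 stages, a MITF library and a PU.1 library of MPs and an IgG library of MPs serve here as references. Each stage has 1 MITF library, so no difference between 36 h and 72 h has a replicate check, and every interval below covers counting error only.

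MITF belongs to the helix-loop-helix family with a leucine zipper and binds E-box sequences as a dimer, also with its relatives TFE3, TFEB and TFEC. PU.1 is an ETS factor that binds purine-rich sequences around a GGAA core and is needed for the macrophage and osteoclast lineages. RANKL, acting through its receptor RANK, turns CSF1-dependent precursors into multinucleated cells that resorb bone, and MITF and PU.1 act together at osteoclast genes.

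The sequences at 12 sites show what MITF peaks looked like on the DNA. Each is 101 bases of the plus strand of mm9 around the peak center, written 5′ to 3′, with matches in capitals. They mark the PU.1 core GAGGAA, which reads TTCCTC on the other strand, and the E-boxes CACGTG or else CATGTG, the latter read as CACATG on the other strand. The first 5 are the sites with the best summed rank in both lists, the next 4 were peaks of 1 stage alone, and the last 3 lie beside genes of osteoclast surface signalling and fusion.
Jazf1, chr6:52792714-52792814: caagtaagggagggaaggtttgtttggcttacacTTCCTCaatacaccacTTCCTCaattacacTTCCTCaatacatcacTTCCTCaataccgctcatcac
Sf3b2, chr19:5291711-5291811: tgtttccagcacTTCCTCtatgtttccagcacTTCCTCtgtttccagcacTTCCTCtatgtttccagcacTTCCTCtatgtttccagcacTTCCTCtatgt
Umodl1, chr17:31142248-31142348: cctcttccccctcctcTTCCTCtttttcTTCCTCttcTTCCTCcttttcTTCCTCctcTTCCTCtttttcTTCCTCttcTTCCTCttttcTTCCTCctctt
Slc22a27, chr19:8094588-8094688: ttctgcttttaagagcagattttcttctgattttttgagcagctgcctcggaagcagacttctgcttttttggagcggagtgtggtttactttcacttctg
Sfi1, chr11:3005511-3005611: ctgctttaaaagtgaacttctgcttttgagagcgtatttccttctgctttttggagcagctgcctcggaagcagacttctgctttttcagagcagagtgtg
Abl1 (36 h alone), chr2:31618971-31619071: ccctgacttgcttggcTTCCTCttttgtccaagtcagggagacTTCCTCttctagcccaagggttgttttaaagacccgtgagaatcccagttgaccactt
Tnfrsf11a (36 h alone), chr1:107683803-107683903: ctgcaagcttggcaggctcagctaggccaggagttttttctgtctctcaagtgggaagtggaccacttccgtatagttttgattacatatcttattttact
Zfp710 (72 h alone), chr7:87189328-87189428: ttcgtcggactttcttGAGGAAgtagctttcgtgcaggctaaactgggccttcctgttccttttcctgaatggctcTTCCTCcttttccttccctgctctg
Ripor2 (72 h alone), chr13:24790769-24790869: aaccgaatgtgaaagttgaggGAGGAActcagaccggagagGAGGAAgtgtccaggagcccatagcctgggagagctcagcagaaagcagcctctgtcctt
Syk, chr13:52667997-52668097: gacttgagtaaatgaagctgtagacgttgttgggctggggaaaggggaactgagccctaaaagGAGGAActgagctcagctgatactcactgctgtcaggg
Fcer1g, chr1:173164805-173164905: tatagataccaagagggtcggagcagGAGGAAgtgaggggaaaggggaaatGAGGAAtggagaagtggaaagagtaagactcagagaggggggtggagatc
Atp6v0d2, chr4:19821838-19821938: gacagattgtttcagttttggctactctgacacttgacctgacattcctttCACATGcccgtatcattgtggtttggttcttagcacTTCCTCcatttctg
None of the 12 windows lay in an exon. The windows at Jazf1, Sf3b2 and Umodl1 held 4, 5 and 8 copies of the PU.1 core in a row of repeats. The windows at Slc22a27 and Sfi1 held no copy of it, and shared a run of 34 bases with each other. Atp6v0d2 was the only one of the 12 with an E-box match.

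The lists were made from libraries of similar size but were not called alike. A Peak Score is the number of sequenced fragments (tags) in a peak scaled to a common library size, and 1 tag was worth 0.9734 at 36 h and 1.1418 at 72 h. If HOMER's default scale of 10000000 tags was used, which is assumed, the libraries held about 10270000 and 8760000 tags, and the IgG library 3120000. Peaks at 36 h held 10 to 1040 tags (median 24), and those at 72 h held 8 to 94 tags (median 10). The peaks at 72 h were all 150 bp wide, whereas those at 36 h were 150 to 1387 bp wide. PU.1 peaks had a median width of 190 bp at 36 h and 150 bp at 72 h. The 36 h list fell into 1398 peaks of 150 bp with 10 to 48 tags, of which 1380 had under 20 tags, and 2105 peaks of 168 bp or more that each had at least 20 tags. Scores are therefore compared below as percentile ranks within a list, where 100 is the highest, and a lower limit of 10 against 8 tags also separates the lists.

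About 2 in 3 peaks at 36 h were found again at 72 h. At 36 h, 2346 of 3503 peaks (66.97%, 95% Wilson interval 65.4% to 68.51%) overlapped a 72 h peak, and at 72 h 2349 of 4435 peaks (52.97%, 51.49% to 54.43%) overlapped a 36 h peak. The remaining 1157 peaks at 36 h and 2086 at 72 h are called alone here. Matched peaks sat on the same spot, with a median of 16 bp between centers and 72.98% of the 2343 one-to-one pairs within 25 bp. Few peaks alone had a close neighbour in the other list: 14 of the 1157 and 17 of the 2086 had a peak of the other list within 500 bp of their center.

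The share matched fell with rank. In the highest of 5 rank classes 89.02% of the 36 h peaks and 94.84% of the 72 h peaks were matched, and in the lowest class, where all peaks had the lowest score of their list, 40.4% and 21.2%. Of the 100 highest peaks at 72 h all 100 had a 36 h peak, and of the 100 highest at 36 h 85 had a 72 h peak. Most of the highest 36 h peaks alone lay in the dense clusters on chromosomes 11 and 17 described below, where IgG peaks were also listed. No loss of sites was read from the 85. With only peaks of at least 2 times the lowest score in each list, the order of the 2 shares turned: 37.68% of 2123 peaks at 36 h and 86.02% of 930 peaks at 72 h were matched. This limit kept 2123 of 3503 peaks at 36 h but 930 of 4435 at 72 h. The shorter 72 h list bounds the 36 h share by construction, so the turn was not read as a result. With lists of equal length the shares were 61.29% and 61.38%, which lists of the same length make nearly equal by construction.

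**Figure D1:**
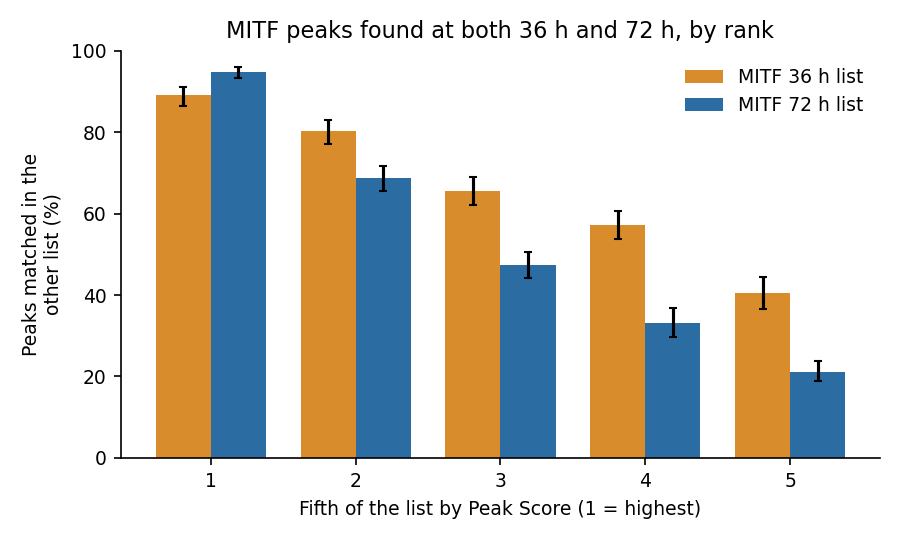
Share of MITF peaks (%) that overlap a MITF peak of the other stage, for 5 rank classes of each list by Peak Score (1 is the highest); orange bars are the 36 h list, blue bars the 72 h list, and lines are 95% Wilson intervals. The share falls from 89.02% to 40.4% at 36 h and from 94.84% to 21.2% at 72 h.

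Sites already bound by MITF in MPs made up most of the matched class. A MITF peak of MPs overlapped 85.42% of the matched 36 h peaks (83.94% to 86.79%) and 43.39% of those alone at 36 h (40.56% to 46.26%). Over the rank classes of the 36 h list this share also fell, from 89.02% in the highest to 47.47% in the lowest. Matched peaks rank higher, and whether the contrast goes beyond rank was not tested. Among the peaks alone at 72 h the share was 40.27% (38.18% to 42.39%), which is 840 sites with a peak in MPs and at 72 h and none in the 36 h list. IgG peaks overlapped 4 of the 3503 peaks at 36 h, all 4 of them alone, and 0 of the 4435 at 72 h, which allows a share of up to 0.06764% by the limit of 3 counts and 0.08654% by the Wilson interval.

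The 5 matched sites with the best summed rank stood at ranks 4 to 15 of the 36 h list and 1 to 7 of the 72 h list. Jazf1, which codes for a zinc finger protein of the nucleus, had an intronic peak with 309 tags at 36 h and 94 at 72 h, the highest score (107.3) of the 72 h list. Sf3b2, a subunit of the splicing complex SF3B, had 314 and 75 tags in an intron 3694 bp from a gene start. The intronic peak of Umodl1 had 323 and 78 tags. All 3 sites, which carry the repeated PU.1 cores shown above, also had a MITF peak in MPs, with scores of 136.1, 75.8 and 68.6. The intergenic peaks near Slc22a27, an organic anion transporter gene, and near Sfi1, a centrosome gene, had 453 and 290 tags at 36 h and 74 and 76 at 72 h. Each of the 5 sites had a PU.1 peak at both stages, with percentiles of at least 99.3.

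The highest peaks alone at 36 h lay in dense clusters. On chromosome 17, 5 wide peaks between 39979965 and 39985868 had up to 1040 tags, and 0 of them had a 72 h peak. On chromosome 11, 49 peaks between 3004420 and 3095280 near Sfi1 had up to 374 tags, and 47 were alone. The matched Sfi1 site described above is 1 of the other 2. The 5 highest peaks alone were 2 of the first and 3 of the second cluster, with widths from 814 to 1387 bp. A further 24 peaks near Mroh2a on chromosome 1, between 90110159 and 90164096, were all alone too and had up to 77 tags. In these clusters 1 of the 5, 3 of the 49 and 3 of the 24 peaks overlapped a PU.1 peak of 36 h, and IgG lists 3, 4 and 0 peaks in these intervals. The 5 and 49 peaks held 1.822% and 3.785% of all tags in 36 h peaks, and their removal, chosen after their values were seen, left the matched share at 67.96%.

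Outside such clusters the named peaks alone at 36 h were lower. Among those with a PU.1 36 h peak, picked after the values were seen, the intronic peak of Abl1, a tyrosine kinase gene, had 124 tags at 36 h (percentile 97.4) and no MITF peak in MPs. Its PU.1 peak scored 258.7 at 36 h and 242.3 at 72 h. Tnfrsf11a, which codes for RANK itself, had 80 tags at 36 h (percentile 92.2) in an intron 6553 bp from a start. No MITF peak was listed there at 72 h, while PU.1 stayed at scores of 146.3 and 160.1. The 72 h list named Tnfrsf11a for another peak, of 9 tags and 84375 bp away from its start.

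The highest peaks alone at 72 h had lower tag numbers. Zfp710, a zinc finger gene, led with 34 tags (percentile 97.7) in an intron. Akr1d1, a steroid reductase gene, followed with 33 tags in an intergenic peak. Flrt3, which codes for an adhesion protein of the cell surface, had 31 tags. Ripor2 and Hpgd, which codes for the enzyme that inactivates prostaglandins, had 24 tags each. Each of the 5 had a PU.1 peak at both stages, and each except Akr1d1 had a MITF peak in MPs. PU.1 scores at 36 h and 72 h were 236.5 and 205.6 at Zfp710, 170 and 170.3 at Flrt3, and 85.7 and 136.6 at Hpgd, so a PU.1 peak was also listed at the stage without a MITF peak.

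Scores of matched peaks kept their order in part. Spearman's rho over the 2343 one-to-one pairs was 0.6119, a value over sites of the same 2 libraries and not over replicates. It was 0.1707 over the 698 pairs whose 36 h peak was also 150 bp wide. At 36 h the number of tags went with the width of the peak (rho 0.9001). The median ratio of 36 h to 72 h tags was 1.091 in pairs whose 36 h peak was 150 bp wide, 2.077 at 168 to 180 bp, 2.846 in the class up to 200 bp, 3.615 up to 250 bp and 5.104 above that. A wider peak counts tags over more bases. Per bp, the median ratio of 72 h to 36 h tags over all 2343 pairs was 0.57, beside 0.8525 for the library sizes. Whether width accounts for the ratios was not tested. The lists were not called alike, so a ratio in these width classes was not read as a change of binding. Of the 411 paired 72 h peaks with a percentile of at least 90, 320 (77.86%) had a partner with a percentile of at least 80 at 36 h, and 212 (51.58%) one of at least 90.

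**Figure D2:**
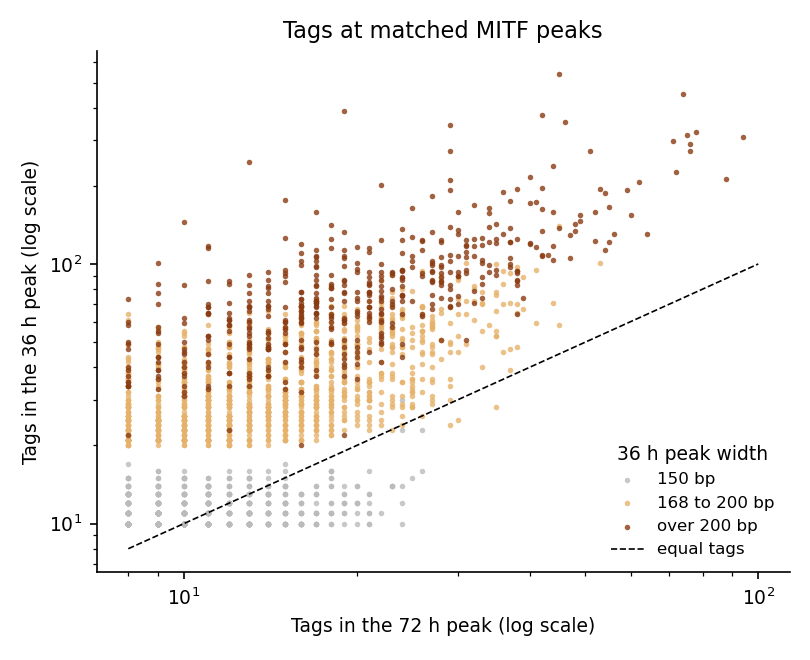
Tags of each one-to-one matched MITF pair at 72 h (x axis) and 36 h (y axis), both on log scales; grey points have a 36 h peak of 150 bp, light brown points 168 to 200 bp and dark brown points over 200 bp, and the dashed line marks equal tags. Most wider 36 h peaks lie above the line, where the median ratio reaches 5.104, and those of 150 bp lie around it with a median ratio of 1.091.

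Where both peaks were 150 bp wide the tags were counted over the same number of bases, and no pair was called. Among 698 such pairs an exact binomial test of the tags given their sum, two-sided and with Benjamini-Hochberg adjustment, called 0 (0.0%) at an adjusted p under 0.05 and a 2-fold change, and 6 had an unadjusted p under 0.05. The smallest adjusted p was 1. The pairs held a median of 22 tags in sum, and both had to be called as peaks with at least 10 and 8 tags. A simulation drew 36 h tags from all 150 bp peaks, changed 72 h tags in both directions and set no lower tag limit. It recovered 5 of 200 changes of 2-fold and 126 of 200 of 4-fold. A 2-fold change was thus not detectable at this depth. Real pairs had to pass the limits of both lists, so the 4-fold recovery does not carry over to them. The 0 calls were therefore not read as equal binding. A 2-fold or greater difference from the median ratio was seen in 10 pairs, 9 of them higher at 72 h and 1 at 36 h. Of the 1398 peaks of 150 bp at 36 h, 1380 had under 20 tags, which left little room for an excess at 36 h. No direction was therefore read from this split. With tags per bp over all 2343 pairs, 29 (1.24%) were called, 22 higher at 36 h and 7 at 72 h. The 36 h widths went with tags and the 72 h widths were all 150 bp, so no direction was read from this split either.

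Pairs with the largest shift in percentile began or ended at the lowest scores. The 5 largest rises all had 10 tags and 150 bp at 36 h. At an intergenic site that both lists named Vps37b, which codes for a subunit of the endosomal sorting complex ESCRT-I, 10 tags at 36 h and 24 at 72 h moved the percentile from 8.48 to 93.1. Prkcq (protein kinase C theta) and Arpc1b (a subunit of the actin-branching complex Arp2/3) each had 10 and then 21 tags. Itga8 (an integrin) had 10 and 20, and an intronic site upstream of Cdyl, a chromodomain gene, 10 and 19. The 5 largest falls all had 8 tags at 72 h and a 36 h peak of 187 to 247 bp. These were Uchl4 (73 tags at 36 h), a second Cdyl site (64), Il20ra (61), Phyh (60), an enzyme of the peroxisome, and Tomm20l (58). The sites of Cdyl start at 35875602 and 35757448 on chromosome 13.

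Nearly all MITF peaks lay on PU.1 peaks at both stages. At 36 h 3318 of 3503 MITF peaks (94.72%, 93.93% to 95.41%) overlapped a PU.1 36 h peak, and at 72 h 4144 of 4435 (93.44%, 92.67% to 94.13%) overlapped a PU.1 72 h peak. Matched peaks had a PU.1 peak in 99.15% and 98.85%, peaks alone in 85.74% and 87.34%. The peaks alone at 36 h include the clusters described above, where few peaks overlapped a PU.1 peak. The stage of the PU.1 list made little difference, since 990 of the 1157 peaks alone at 36 h also lay on a PU.1 72 h peak and 1804 of the 2086 alone at 72 h on a PU.1 36 h peak. PU.1 was thus listed at most of these sites also at the stage where MITF was not.

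MITF peaks took the top of the PU.1 lists. The median percentile of the PU.1 peak at a MITF site was 96.38 at 36 h and 95.68 at 72 h. It was higher at matched sites (97.46 and 97.57) than at sites alone (93.09 and 92.38). In the highest of 10 rank classes of the PU.1 list 38.24% of the peaks at 36 h and 41.76% at 72 h had a MITF peak, in the next class 5.082% and 9.276%, and over the whole list 4.616% and 5.382%. MITF and PU.1 scores at shared sites had a rho of 0.5295 at 36 h and 0.5461 at 72 h, across sites that share a library.

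**Figure D3:**
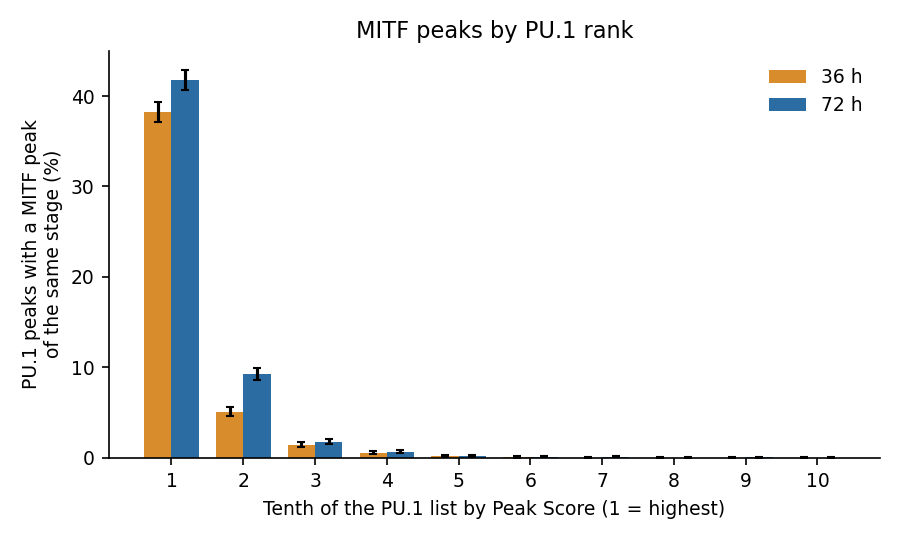
Share of PU.1 peaks (%) that overlap a MITF peak of the same stage, for 10 rank classes of the PU.1 list by Peak Score (1 is the highest); orange bars are 36 h, blue bars 72 h, and lines are 95% Wilson intervals. The share drops from 38.24% and 41.76% in the highest class to 5.082% and 9.276% in the next.

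MITF peaks without PU.1 were few and mostly of 1 stage. There were 185 at 36 h, of which 165 were alone, and 291 at 72 h, of which 264 were alone. Those at 36 h include most peaks of the clusters on chromosomes 17, 11 and 1. There 1 of 5, 3 of 49 and 3 of 24 peaks overlapped a PU.1 36 h peak. At 72 h 203 of the 291 had the lowest score of the list, and at 36 h 42 of the 185, which had a median of 21 tags and reached 1040. Limd1, which codes for a LIM domain adaptor protein, was an exception, with a matched exonic peak of 25 tags at 36 h and 17 at 72 h, a MITF peak in MPs and no PU.1 peak at either stage.

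The PU.1 core was most frequent at matched sites and sat at the center of the peaks. Motifs were searched within 100 bp of the center on both strands, and the PU.1 core and AP-1 sequences were added after the data had been seen. GAGGAA was found in 75.9% of matched peaks (74.13% to 77.59%), in 62.83% of those alone at 36 h and 63.61% of those alone at 72 h. It was found in 57.87% of PU.1 72 h peaks without MITF and in 17.87% of 25556 windows placed every 100 kb. Among PU.1 peaks with a percentile of at least 90 and no MITF peak the shares were 66.74% at 36 h (65.35% to 68.1%) and 66.46% at 72 h (65.06% to 67.83%). These were below that of matched peaks and not below those of all peaks alone. The peaks alone that lay on a PU.1 peak of the same stage held GAGGAA in 69.76% at 36 h (66.83% to 72.54%) and 69.7% at 72 h (67.55% to 71.77%). In the peaks without a PU.1 peak it was found in 22.16% at 36 h and 24.4% at 72 h. In the 20 bp on either side of the center there were 27.08 and 30.27 matches per 100 matched peaks, against 3.533 and 3.704 in the outermost 20 bp. Within the 72 h list the share with GAGGAA fell with rank, from 80.75% in the highest of 5 classes to 59.35% in the lowest. Matched peaks rank higher, and whether their excess of GAGGAA goes beyond rank was not tested.

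Repeated PU.1 cores were most frequent at the best-ranked sites. At least 4 copies within 100 bp were seen in 12 of the 50 matched sites with the best summed rank (24%, 14.3% to 37.41%), which include the Jazf1, Sf3b2 and Umodl1 sites that led to this count, in 21 of the 200 best (10.5%, 6.971% to 15.52%), in 4.725% of all matched sites (3.939% to 5.66%), in 2.679% of those alone at 36 h and in 2.972% of those alone at 72 h. At least 2 copies were seen in 34.27% of matched sites (32.38% to 36.21%). Among the PU.1 72 h peaks with a percentile of at least 90 that had no MITF peak the shares were 0.4028% for 4 copies and 18.59% for 2 (17.48% to 19.76%). Over all PU.1 72 h peaks without MITF they were 1.657% for 4 copies (1.567% to 1.752%) and 15.79% for 2. These counts were chosen after the sequences of the leading sites had been read.

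E-boxes of the MITF type, with both forms counted together, were not more frequent at matched peaks than in the windows, and intervals of the peaks alone included the share of the windows. CACGTG or CATGTG was found in 13.84% of matched peaks (12.5% to 15.29%), 16.77% of those alone at 36 h (14.73% to 19.03%) and 17.16% of those alone at 72 h (15.6% to 18.84%). The share was 17.55% in the windows and 17.27% in PU.1 72 h peaks without MITF. Among PU.1 peaks with a percentile of at least 90 and no MITF peak it was higher, 20.86% at 36 h (19.7% to 22.07%) and 20.03% at 72 h (18.88% to 21.23%). CACGTG by itself was found in 3.889% of peaks alone at 36 h (2.919% to 5.165%), above the 2.093% of the windows (1.925% to 2.276%), and in 3.463% of PU.1 36 h peaks without MITF (3.329% to 3.602%). It was found in 2.214% of matched peaks (1.692% to 2.891%) and 2.685% of those alone at 72 h (2.073% to 3.47%). PU.1 peaks with a percentile of at least 90 and no MITF peak held CACGTG in 4.363% at 36 h and 3.961% at 72 h. GC content was 47.5% around matched peaks and 41.8% in the windows. E-box matches showed no rise at the center, with 1.149 and 1.362 per 100 matched peaks in the 20 bp on either side of it and 1.831 and 1.405 in the outermost 20 bp. A match is a string of letters and says nothing of whether MITF was bound to it.

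**Figure D4:**
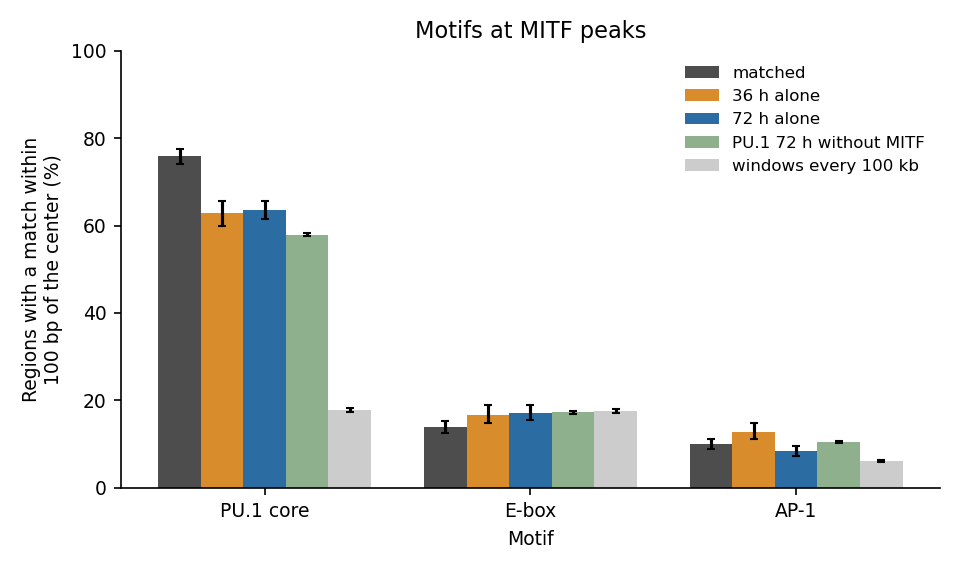
Share of regions (%) with at least 1 match within 100 bp of the center for the PU.1 core, the E-box of the MITF type and the AP-1 sequence; dark grey bars are matched peaks, orange 36 h alone, blue 72 h alone, green PU.1 72 h peaks without MITF, light grey windows every 100 kb, and lines are 95% Wilson intervals. The PU.1 core reaches 75.9% at matched peaks, whereas the E-box stays between 13.84% and 17.55% in these 5 classes.

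**Figure D5:**
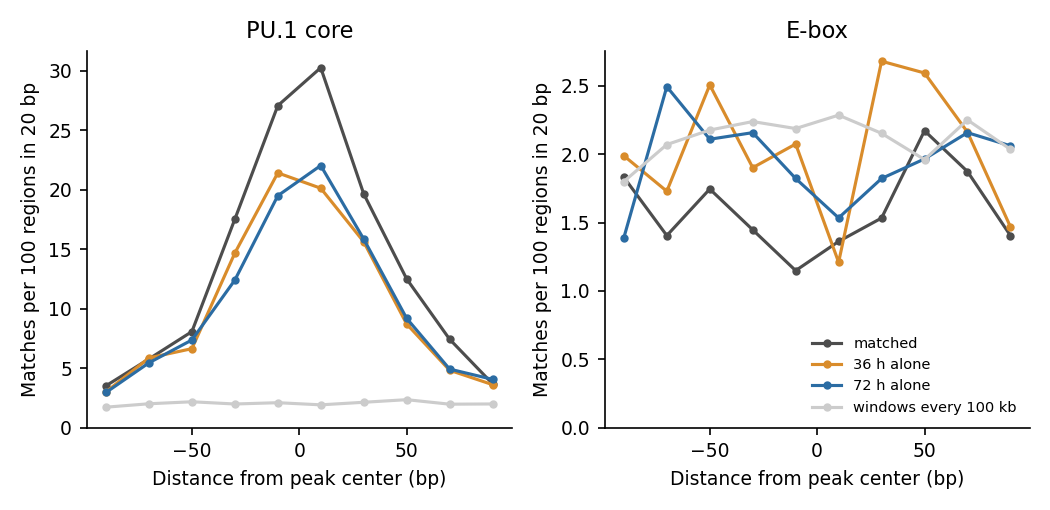
Matches per 100 regions in bins of 20 bp against the distance from the peak center (bp), for the PU.1 core (left) and the E-box (right); dark grey is matched peaks, orange 36 h alone, blue 72 h alone and light grey windows every 100 kb. The PU.1 core peaks at 30.27 per 100 matched peaks beside the center, and the E-box lines show no peak there.

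AP-1 sequences were more frequent in peaks alone at 36 h than in those alone at 72 h, with intervals that did not overlap. TGANTCA, the site of FOS and JUN dimers, which RANKL is known to activate, was found in 12.88% of the peaks alone at 36 h (11.07% to 14.93%), in 8.389% of those alone at 72 h (7.275% to 9.657%) and in 10% of matched peaks. PU.1 peaks without MITF stood in the same order, with 13.16% at 36 h and 10.57% at 72 h, and the windows held 6.108%. PU.1 peaks with a percentile of at least 90 and no MITF peak held more than the peaks alone, 18.81% at 36 h (17.7% to 19.98%) and 14.41% at 72 h (13.41% to 15.47%). Sites and not libraries are counted in these intervals.

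Peaks of both stages were found in similar places. On the GENCODE annotation of mm9, 49.64% of 36 h peaks and 51.05% of 72 h peaks lay in introns and 44.33% and 43.49% between genes. Within 1 kb of a gene start lay 14.26% of the peaks alone at 36 h (12.36% to 16.39%), 11.27% of those alone at 72 h (9.979% to 12.69%) and 9.919% of the matched 72 h peaks (8.775% to 11.19%). After Sfi1 and Mroh2a of the clusters, the protein-coding genes nearest to most peaks were Myc, Cyrib and Rreb1, with 15 each over both lists, named for these counts. Myc, a growth regulator, was nearest to 5 peaks at 36 h and 10 at 72 h. Runx1 was nearest to 3 and 7, and Nrp2 to 8 and 6.

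The lists named 2535 genes at 36 h and 2904 at 72 h that could be turned into symbols, and 1660 were named by both (65.48% and 57.16%). They make up 43.93% of the 3779 genes named at either stage, beside 23.15% named at 36 h alone and 32.92% at 72 h alone. Annotations differed, since 294 peaks at 72 h and 0 at 36 h carried predicted transcripts (XM accessions). Matched pairs had the same symbol in 89.11% and the same GENCODE protein-coding gene in 99.96%. With GENCODE genes in both lists, 55.21% of 3677 genes were shared.

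Genes of osteoclast differentiation and function were often named at both stages. Of 115 genes in lists of regulators, osteoclast functions and cell type markers, 48 (41.74%) were the nearest gene of a 36 h peak, 59 (51.3%) of a 72 h peak and 43 (37.39%) of both, while 10.5%, 13.3% and 7.66% of all coding genes of RefSeq were. The lists hold genes that the study itself tested for MITF and PU.1 peaks, so they are no independent evidence. Of the 43 genes named at both stages 40 had a matched peak. The highest peak of 47 of the 48 genes at 36 h and of 58 of the 59 at 72 h lay on a PU.1 peak of the same stage. A peak center lay within 50 kb of a start of 68 of the 115 genes at 36 h and 72 at 72 h (59.13% and 62.61%), and of 21.3% and 25.7% of all coding genes of GENCODE.

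In the list drawn up for transcription factors that promote osteoclast differentiation, 8 of 15 genes were named at both stages and 5 at neither. Named at 72 h alone were 2, Nfkb1 and, in the annotation of the lists, Myc. Places in this list and the next were assigned and not measured, so they do not show what Rbpj, Notch2 or another member does. Rbpj, the DNA-binding factor of Notch signalling, was highest, with an intergenic peak of 174 tags at 36 h (percentile 98.7) and 41 at 72 h (98.9). An intronic peak of Nfatc1, the master regulator downstream of RANKL, had 87 tags at 36 h (93.5) and 38 at 72 h (98.6), with PU.1 scores of 261.6 and 246.7. Fosl2, an AP-1 subunit, had 68 and 18 tags at its highest 36 h peak, and Fos had 30 and 15 at a site 36178 bp upstream. Tfec, a relative of MITF, had 11 tags at 36 h (percentile 21.9) and 18 at 72 h (85.4) at an upstream site matched in both lists. A higher Tfec peak of 37 tags, 57 bp from the start, was alone at 36 h. Nfkb1 had 14 tags at 72 h alone, 16 bp from its start.

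In the list drawn up for genes that restrain osteoclast differentiation, 6 of 10 were named at both stages and 1, Notch2, at 72 h alone. Runx1 had 70 tags at 36 h (percentile 89.8) and 33 at 72 h (97.4) at a site 205735 bp upstream. A peak upstream of Id2, an inhibitor of helix-loop-helix factors, had 61 and 22 tags, and the 36 h list named another gene for it. Bcl6, a repressor, had 32 and 19. Irf8, which keeps precursors in the macrophage lineage, had 35 tags at 36 h (69.6) in an intronic peak of 200 bp and 9 at 72 h (31.9). Ikzf1 had 25 and 13 tags.

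Of 8 further factors and signalling genes, 7 were named at both stages and Lif at neither. Klf10, a zinc finger factor induced by TGF-beta, had 87 tags at 36 h (percentile 93.5) and 30 at 72 h (96.6). Klf7 had 68 and 29 tags, and Hif1a, the oxygen-sensing factor, 61 and 22. Smad2, a mediator of TGF-beta signals, had 38 and 23. Stat3, which carries cytokine signals and was named after its values were seen, had 35 tags at 36 h (69.6) and 10 at 72 h (45.2). Percentiles come from lists of different length and calling, so no direction was read from them for single genes.

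Surface and signalling genes of osteoclasts were named at both stages for 6 of 13, at 36 h alone for 2 (Tyrobp and Sirpa, whose peak was matched under another name) and at 72 h alone for 1 (Csf1r). Syk, the kinase that carries ITAM receptor signals, had one of the highest peaks of the 72 h list, 10495 bp upstream, with 166 tags at 36 h (percentile 98.6) and 55 at 72 h (99.7). The 36 h list named a predicted gene there. Fcer1g, the Fc receptor gamma chain that couples such receptors to Syk, had 106 and 31 tags 359 bp from its start. Both lay on PU.1 peaks of percentile 99.2 or more. Trem2, an immune receptor, had 33 and 18 tags, and Plcg2, a phospholipase below it, 41 and 12. The peak in an exon of Csf1r, the CSF1 receptor, was matched, with 37 and 14 tags, but the 36 h list named a microRNA there.

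Fusion genes were named at both stages for 3 of 7 and at 72 h alone for 2. Cd44, a hyaluronan receptor, had 105 tags at 36 h (percentile 96) and 19 at 72 h (87.2). Atp6v0d2, a proton pump subunit needed for fusion, had 65 and 11 (88.1 and 55.2) at the intronic site with the E-box shown above. Cd47 had 10 and 15 tags. Dcstamp, the transmembrane protein on which fusion of osteoclast precursors depends, and Cd9 had 12 and 10 tags at 72 h (percentiles 62.7 and 45.2) and were the nearest gene of no 36 h peak. The Dcstamp peak lay in an intron 48690 bp from a start of Rims2, the nearest coding gene, and had a MITF peak in MPs with a score of 14.5. No MITF peak center lay within 50 kb of a start of Dcstamp at either stage, while Cd9 had one within 50 kb at both.

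Genes of resorption and acid secretion were named at both stages for 2 of 13, Mmp9 and Atp6v1c1, and at 72 h alone for 3. Atp6v1c1, a subunit of the proton pump, had 47 and 20 tags. Mmp9, a matrix protease, had 35 tags at 36 h and 16 at 72 h in an intron. Tcirg1, the osteoclast subunit of the pump, Atp6v1b2 and Car2, carbonic anhydrase 2, had 11, 10 and 10 tags at 72 h alone, while the lowest called peaks of that list had 8. A 36 h peak center lay within 50 kb of a start of Tcirg1, and the Atp6v1b2 peak was closest to a start of Slc18a1, 77206 bp away. Acp5, Ctsk and Calcr, all marker genes of osteoclasts, were the nearest gene of no peak at either stage. A peak center lay within 50 kb of a start of Acp5 and of Ctsk at both stages, and of Calcr at neither.

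Lysosome and autophagy genes of the kind that MITF and TFE factors are known to regulate were named at both stages for 5 of 20, at 36 h alone for 2 and at 72 h alone for 2. Hexa, which codes for a lysosomal enzyme, had 58 tags at 36 h (percentile 85) and 16 at 72 h (80.5) in an intron. Lamp1, a membrane protein of lysosomes, had 99 tags at 36 h (95.3) and 27 at 72 h (95.1) 3527 bp upstream. Ctsb, a lysosomal protease, had 23 and 21 tags, and Fnip2, a partner of folliculin, 71 and 12 at a matched site that the 72 h list gave to a transcript without a symbol here.

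Hmox1, the heme-degrading enzyme, had 62 tags at 36 h and 16 at 72 h, and Tfrc, the transferrin receptor, had 25 and 11. Pstpip1 and Pxn, adaptors of the actin cytoskeleton, had 32 and 25 tags and 26 and 17. Iron and mitochondrial genes were named at both stages for 3 of 5, and genes of actin and podosomes for 2 of 8. Scin, an actin-severing protein, was named at 36 h alone with 23 tags. Dock5, Gsn and Rac2 were named at 72 h alone, where the highest peak of each had the lowest score, with 8 tags.

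The markers of other cell types were checked against the label of bone marrow myeloid cells. Of 4 macrophage markers Itgam was named at both stages and Csf1r and Adgre1 at 72 h alone, and of 4 osteoclast markers Mmp9 at both. None of the 4 B cell, 3 T cell and 3 neutrophil markers was named at either stage, which is too few genes to set against the 10.5% and 13.3% of all coding genes. Of 3 mesenchymal markers Runx2 was named at 72 h, for 2 peaks of up to 9 tags. By the rule of 50 kb, all 3 mesenchymal markers, 1 T cell marker (Cd4) and no B cell or neutrophil marker had a peak at both stages. A peak beside a gene does not measure its expression, so the share of each cell type in the cultures was not measured.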

How the data were processed

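The authors processed the reads with CASAVA 1.8, mapped them with Bowtie2 to mm9 and called peaks with HOMER. The settings are not given in the sources used here. The authors deposited 1 peak list per library, in which the Peak Score is the only value used, with positions and the nearest RefSeq transcripts. Each score was a whole multiple of the worth of 1 tag, with an error of at most 0.0511, and this gave the tags per peak. Any shared base (1 bp or more) made a match, and the 2346 overlapping 36 h peaks equalled the number from bedtools 2.31.1. Percentiles use mean ranks of ties. Accessions became symbols in 95.38% of 36 h and 91.32% of 72 h peaks with a RefSeq table of GRCm38.p6, used for names alone. Distances, exons and introns came from GENCODE for mm9. Sequences were read from the mm9 genome with samtools 1.23.1.

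The members and lists were chosen with earlier results of these data known. Named sites are the 5 best matched, the 5 highest of each stage alone, the 5 largest shifts each way, pairs called by the tag test, and up to 5 genes a list, of which 1 is not reported here. The tag test was tested on simulated data of 698 pairs. Alternatives were a score limit, other overlap rules, equal lists, 150 bp peaks, no IgG peaks, all chromosomes, a narrower motif window and GENCODE genes. Python 3.11.15, numpy 2.4.6, pandas 2.3.3 and scipy 1.17.1 were used.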

Additional observations from a re-analysis of the deposited data

How the results depend on the processing

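Of 84 comparisons with an alternative, 65 stayed within the interval of the value or within 1.5 times the count, and 19 moved. Reversals were not scored as a class of their own. The limit of 2 times the lowest score turned the order of the 2 matched shares. It kept 2123 peaks at 36 h and 930 at 72 h, which by itself bounds the 36 h share. Peaks of at least 2 times the lowest score gave the matched shares 37.68% at 36 h and 86.02% at 72 h, a PU.1 share of 98.92% at 72 h, a rho of 0.5399, 33.79% shared genes, E-boxes in 11.54% of peaks alone at 72 h, and 26 listed genes at 72 h and 25 at both stages in place of 59 and 43. Lists of equal length gave 61.29%, 61.38% and a PU.1 share of 96.75% at 72 h. The PU.1 share at 36 h was 93.92% with centers within 100 bp, 93.81% on all chromosomes and, chosen after seeing the data, 96.09% without the clusters on chromosomes 11 and 17. Within 50 bp of the center E-boxes were found in 6.428% of matched peaks, 8.729% alone at 36 h and 8.293% alone at 72 h, in a window that is shorter by construction. GENCODE genes gave 55.21% shared, and tags per bp 29 called pairs. The cause of the other moves was not tested. No paired analysis was possible because each stage has 1 library. The lowest called peaks, 10 tags at 36 h and 8 at 72 h, limit what can be seen, so a site missing from a list is not shown to be unbound.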
